A study of Homo sapiens with 30 samples.

Results

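Cells exposed for 1 h to multi-walled carbon nanotubes (MWCNT) were compared with cells exposed for 1 h to titanium dioxide nanobelts (TiO2-NB), with the 10 and 100 µg/ml doses of each particle pooled. The 12 arrays were chosen by their sample titles, out of 30 arrays in all: 6 MWCNT arrays, 3 at 10 µg/ml and 3 at 100 µg/ml, against 6 TiO2-NB arrays, 3 at 10 µg/ml and 3 at 100 µg/ml. A further 3 arrays of cells that received particle-free medium for 1 h were the control, and the same difference was also read in the 12 MWCNT and TiO2-NB arrays of 24 h. All groups were the same co-culture of Caco-2, a human colorectal adenocarcinoma line, and HT29-MTX, a methotrexate-treated human colon adenocarcinoma line. The lines were seeded at 75% and 25% on porous inserts and grown for 14 days before particles were put on the upper side, so every group shares this mixture of cancer cell lines and no group is normal intestine. Control cells had medium in place of a suspension, and a particle-free suspension vehicle is not named in the labels. The labels call the 3 arrays of a group biological replicates without saying how the cultures differed. The p-values below therefore rest on the spread between arrays of a group. In the fit that made the calls, this spread was pooled over all 10 groups, those of 24 h included.

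A monolayer of this kind models the lining of the gut: differentiated Caco-2 cells carry a brush border like that of absorptive enterocytes, and HT29-MTX cells secrete mucus like goblet cells. Carbon nanotubes are thin, durable fibres of rolled carbon sheets that can carry adsorbed organic molecules and catalyst metals, whereas titanium dioxide nanobelts are long crystalline ribbons of a metal oxide. Genes known to answer such exposures include the xenobiotic sensor AHR and its target CYP1A1, the metal-binding metallothioneins, heat shock chaperones and the early growth-factor response.

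Each value is a log2 level of 1 probe set on 1 array, and a difference is MWCNT minus TiO2-NB on that log2 scale, so that 1 unit is a doubling. Because the values were normalised to a common distribution, each difference is relative to the other transcripts of the same arrays, and in bulk RNA fewer cells of a type cannot be told apart from less RNA per cell. The median level of an array was 6.45 to 6.49, and arrays of a group correlated at 0.997 or above. Of the marker lists for the cell types, 8 of 8 enterocyte genes were measured (VIL1 averaged 11.9 and FABP1 13.8), as were 7 of 7 goblet genes (TFF1 12.8, AGR2 13.1 and MUC2 6.07), 4 of 5 leukocyte genes and 7 of 7 fibroblast and endothelial genes. In each of the 4 lists 0 genes passed the test between the particles, and the mean of the enterocyte list was 11.17 to 11.27 on the MWCNT arrays, against 11.17 to 11.26 on the TiO2-NB arrays. The goblet list had 9.001 to 9.095 on the MWCNT arrays and 9.050 to 9.124 on the TiO2-NB arrays. The leukocyte list had 5.32 to 5.53 on the MWCNT arrays and 5.34 to 5.59 on the TiO2-NB arrays, and the fibroblast and endothelial list 5.92 to 6.12 and 6.03 to 6.14 in the same order.

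At 1 h the particles separated a small set of genes by small amounts. With MWCNT, the scavenger receptor gene OLR1, the natriuretic peptide gene NPPB, the cytokine-signalling inhibitor SOCS2 and the xenobiotic-metabolising enzyme CYP1A1 were lower than with TiO2-NB. The choline transporter SLC44A1, the BRCA2-binding repressor EMSY, the glucosylceramide synthase UGCG and the autophagy gene ATG2B were higher. In all, 125 of 22215 probe sets passed an adjusted p of 0.05, which is 0.563% of those tested: 92 were higher with MWCNT (0.414%) and 33 were lower (0.149%). Taking 1 probe set per gene, 48 of 11963 genes were higher (0.401%) and 19 were lower (0.159%). The called differences ran from -0.65 to 0.47, and 2 of the 125, OLR1 and NPPB, reached 1.5-fold. The 6 MWCNT arrays and the 6 TiO2-NB arrays did not overlap for 60 of the 125, and for 1.08% of all probe sets, which describes probe sets chosen on the same arrays.

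The number called depended on the arrays and on the fit. It rested on a spread shared by all 30 arrays. Fitted on the 12 exposed arrays alone, with dose as a term, 2 probe sets passed, NPPB (adjusted p = 0.00289) and OLR1 (adjusted p = 0.027). On the 15 arrays of 1 h, 1 passed, NPPB. Without MWCNT 10 µg/ml replicate 1 the count was 16, without its replicate 3 it was 47, without MWCNT 100 µg/ml replicate 1 it was 212 and without its replicate 3 it was 23. Without TiO2-NB 10 µg/ml replicate 1 it was 83, without its replicate 3 it was 33, without TiO2-NB 100 µg/ml replicate 1 it was 53 and without its replicate 2 it was 19.

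The level of 18S ribosomal RNA, a sign of RNA handling on this array type, was higher on average on the MWCNT arrays, with overlapping ranges and a difference that did not pass. Its 3 probe sets averaged 9.18 ± 0.28 on the MWCNT arrays, 8.82 ± 0.49 on the TiO2-NB arrays (SD, n = 6 each) and 8.37 ± 0.11 on the control arrays (SD, n = 3). The difference of 0.352 between the particles had an exact two-sided permutation p of 0.185 (0.74 adjusted over 4 measures), where 0.005 is the smallest p that relabeling within each dose allows. The lowest exposed array was TiO2-NB 10 µg/ml replicate 3, at 8.12. When 18S entered the fit as a covariate, 4 probe sets passed: NPPB, OLR1, ZNF302 and IVNS1ABP. The sizes changed less than the calls: the differences of the 30 named genes kept a median of 94.4% of their size in that fit, from 64.7% for UGCG (0.27) to 113% for CAMP (-0.29), and 9 of the 30 were larger. The median was 85.5% for the 15 higher genes and 98.8% for the 15 lower genes. The 28S level (8.96 on the MWCNT arrays and 8.95 on the TiO2-NB arrays, exact p = 0.8) and the differences between the 3′ and 5′ ends of GAPDH (exact p = 0.42) and ACTB (exact p = 0.575) did not pass either. Whether the 18S difference has a part in the other calls was not tested.

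**Figure D1:**
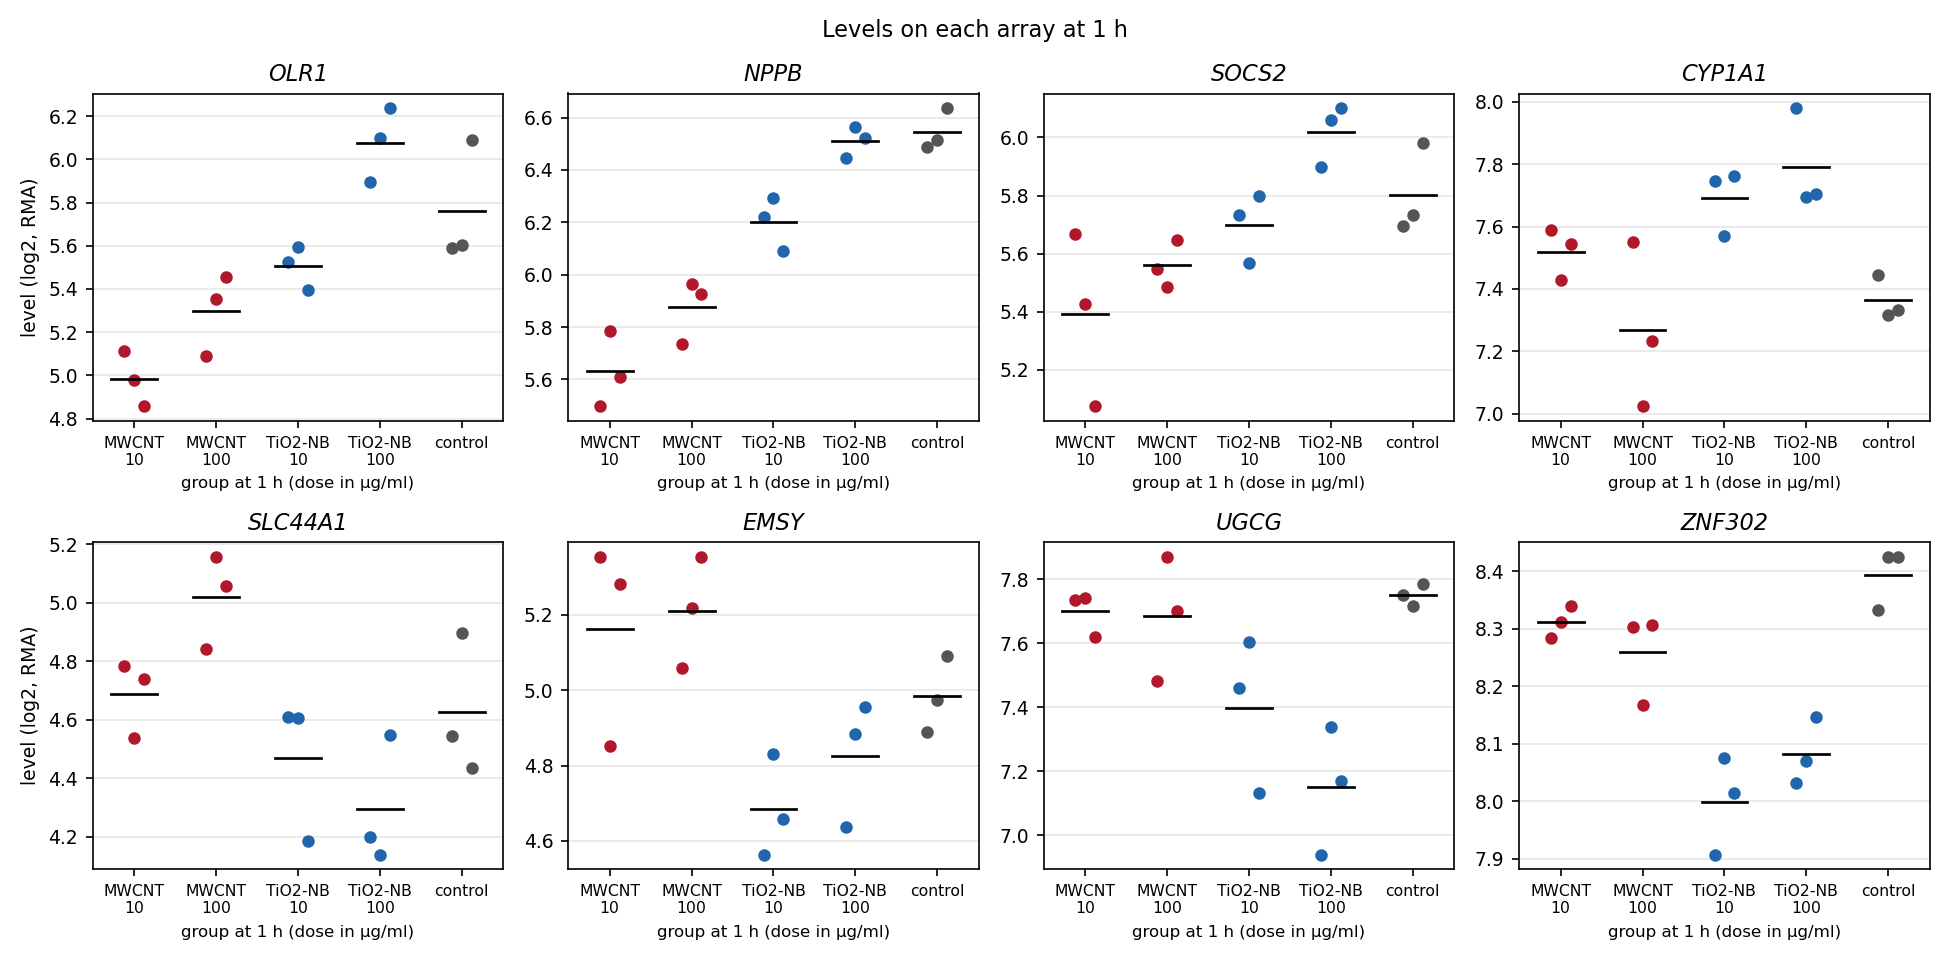
Level (log2) of 8 genes on each array of 1 h, for MWCNT at 10 and 100 µg/ml, TiO2-NB at 10 and 100 µg/ml and the control; points are arrays, bars are means of 3, and the vertical axis differs between panels and does not start at 0. For NPPB the 6 MWCNT arrays lie between 5.50 and 5.97, below the 6 TiO2-NB arrays, and for ZNF302 they lie between 8.17 and 8.34, above them.

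Among the genes lower with MWCNT, NPPB, which encodes the precursor of B-type natriuretic peptide, had the smallest adjusted p. It had 5.50, 5.79 and 5.61 with MWCNT at 10 µg/ml and 5.73, 5.97 and 5.93 at 100 µg/ml, against 6.22, 6.29 and 6.09 with TiO2-NB at 10 µg/ml and 6.44, 6.56 and 6.52 at 100 µg/ml. The control arrays had 6.49, 6.51 and 6.64. All 6 MWCNT arrays were below all 6 TiO2-NB arrays, and the TiO2-NB arrays of 100 µg/ml overlapped the control. The difference was -0.60 ± 0.08 (SE from limma, n = 6 arrays each, adjusted p = 0.000811), or 1.52-fold lower with MWCNT, with -0.57 at 10 µg/ml and -0.64 at 100 µg/ml. The call held in each of the alternatives run, with an adjusted p of at most 0.00618.

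OLR1, the receptor for oxidised low-density lipoprotein, had the largest difference of the called genes. Its levels were 5.11, 4.98 and 4.86 with MWCNT at 10 µg/ml and 5.09, 5.35 and 5.46 at 100 µg/ml, against 5.52, 5.60 and 5.39 with TiO2-NB at 10 µg/ml and 5.90, 6.10 and 6.24 at 100 µg/ml. The control arrays had 5.59, 5.60 and 6.09. The groups overlapped only through the highest MWCNT array and the lowest TiO2-NB array, and the mean of each particle was higher at 100 than at 10 µg/ml. The difference was -0.65 ± 0.11 (adjusted p = 0.00866), or 1.57-fold lower with MWCNT, and it lost its call with the 15 arrays of 1 h (adjusted p = 0.0799).

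SOCS2, an inhibitor of growth hormone and cytokine signalling through JAK and STAT proteins, had 5.67, 5.43 and 5.08 with MWCNT at 10 µg/ml and 5.55, 5.49 and 5.65 at 100 µg/ml, against 5.73, 5.57 and 5.80 with TiO2-NB at 10 µg/ml and 5.90, 6.06 and 6.10 at 100 µg/ml. The control arrays had 5.69, 5.73 and 5.98. All 6 MWCNT arrays lay below the lowest control array, and 2 of them were within the range of TiO2-NB at 10 µg/ml. Its difference was -0.38 ± 0.08 (adjusted p = 0.038), and a second probe set had -0.19 and did not pass (adjusted p = 0.313). The call of the first held in 5 of the 12 fits with 1 exposed array of 1 h left out.

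CYP1A1 encodes a cytochrome P450 that oxidises polycyclic hydrocarbons and is the textbook target of AHR. It had 7.59, 7.43 and 7.54 with MWCNT at 10 µg/ml and 7.55, 7.03 and 7.23 at 100 µg/ml, against 7.74, 7.57 and 7.76 with TiO2-NB at 10 µg/ml and 7.98, 7.69 and 7.70 at 100 µg/ml. The control had 7.45, 7.32 and 7.33. The TiO2-NB arrays all lay above the control arrays, and the MWCNT arrays lay on both sides of them. The difference was -0.35 ± 0.07 (adjusted p = 0.0375), with -0.17 at 10 µg/ml and -0.52 at 100 µg/ml. Its call held in 3 of the 12 fits with 1 exposed array of 1 h left out. With 18S as a covariate in limma the call was lost (adjusted p = 0.153). AHR itself did not pass, at 0.11 (adjusted p = 0.189), nor did TIPARP, another AHR target, at -0.15 (adjusted p = 0.0683).

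The remaining 11 named lower genes differed by -0.34 to -0.19. IGFBP1, a binder of insulin-like growth factors, had a difference of -0.34 ± 0.08, and its 6 arrays spanned 6.48 to 6.93 with MWCNT, against 6.89 to 7.17 with TiO2-NB. CHI3L1, a chitinase-like secreted glycoprotein, had -0.32 ± 0.07 and no overlap between the groups; a second of its 3 probe sets also passed (-0.54, adjusted p = 0.0441), and the third had 0.02. The peptide hormone precursor ADM had -0.23 ± 0.05, and the matricellular protein CCN1 had -0.19 ± 0.04. CAMP, the precursor of the antimicrobial peptide LL-37, had -0.26 ± 0.06 with no overlap, at 5.60 to 5.76 with MWCNT against 5.78 to 6.10 with TiO2-NB. IFNG, the gene of interferon gamma, which lymphocytes make, had -0.23 ± 0.05 with no overlap, and its levels of 4.68 to 4.82 with MWCNT and 4.87 to 5.08 with TiO2-NB are close to those of the control (4.82 to 4.88). The called lower probe sets were dim, with a median level of 5.89 against 7.67 for the called higher ones and 6.47 for all, and IFNG, ALAS2 and BCAN are known from lymphocytes, erythroid cells and brain, which the co-culture does not hold. Genes listed for absent cell types also lay mostly below 0 (15 of 20 leukocyte and 15 of 18 fibroblast and endothelial genes). Of all 11963 genes 6742 did. Some other lists leaned the same way, such as DNA replication (33 of 42) and oxidative phosphorylation (41 of 58), while 16 of 21 junction genes lay above 0. The part of such leanings in the lower calls was not tested. The small GTPase RASL11B had -0.26 ± 0.06, the erythroid haem synthesis enzyme ALAS2 -0.25 ± 0.05, the metallothionein MT2A -0.20 ± 0.04, the tubulin TUBB6 -0.20 ± 0.05 and the brain proteoglycan BCAN -0.19 ± 0.04. Adjusted p-values of these genes lay between 0.0187 (ALAS2) and 0.0494 (IGFBP1 and RASL11B). Of the 12 fits with 1 exposed array of 1 h left out, their calls held in 1 (IGFBP1 and RASL11B) to 8 (ALAS2 and CCN1). Further probe sets of BCAN had 0.04 (adjusted p = 0.804) and -0.07 (adjusted p = 0.639).

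**Figure D2:**
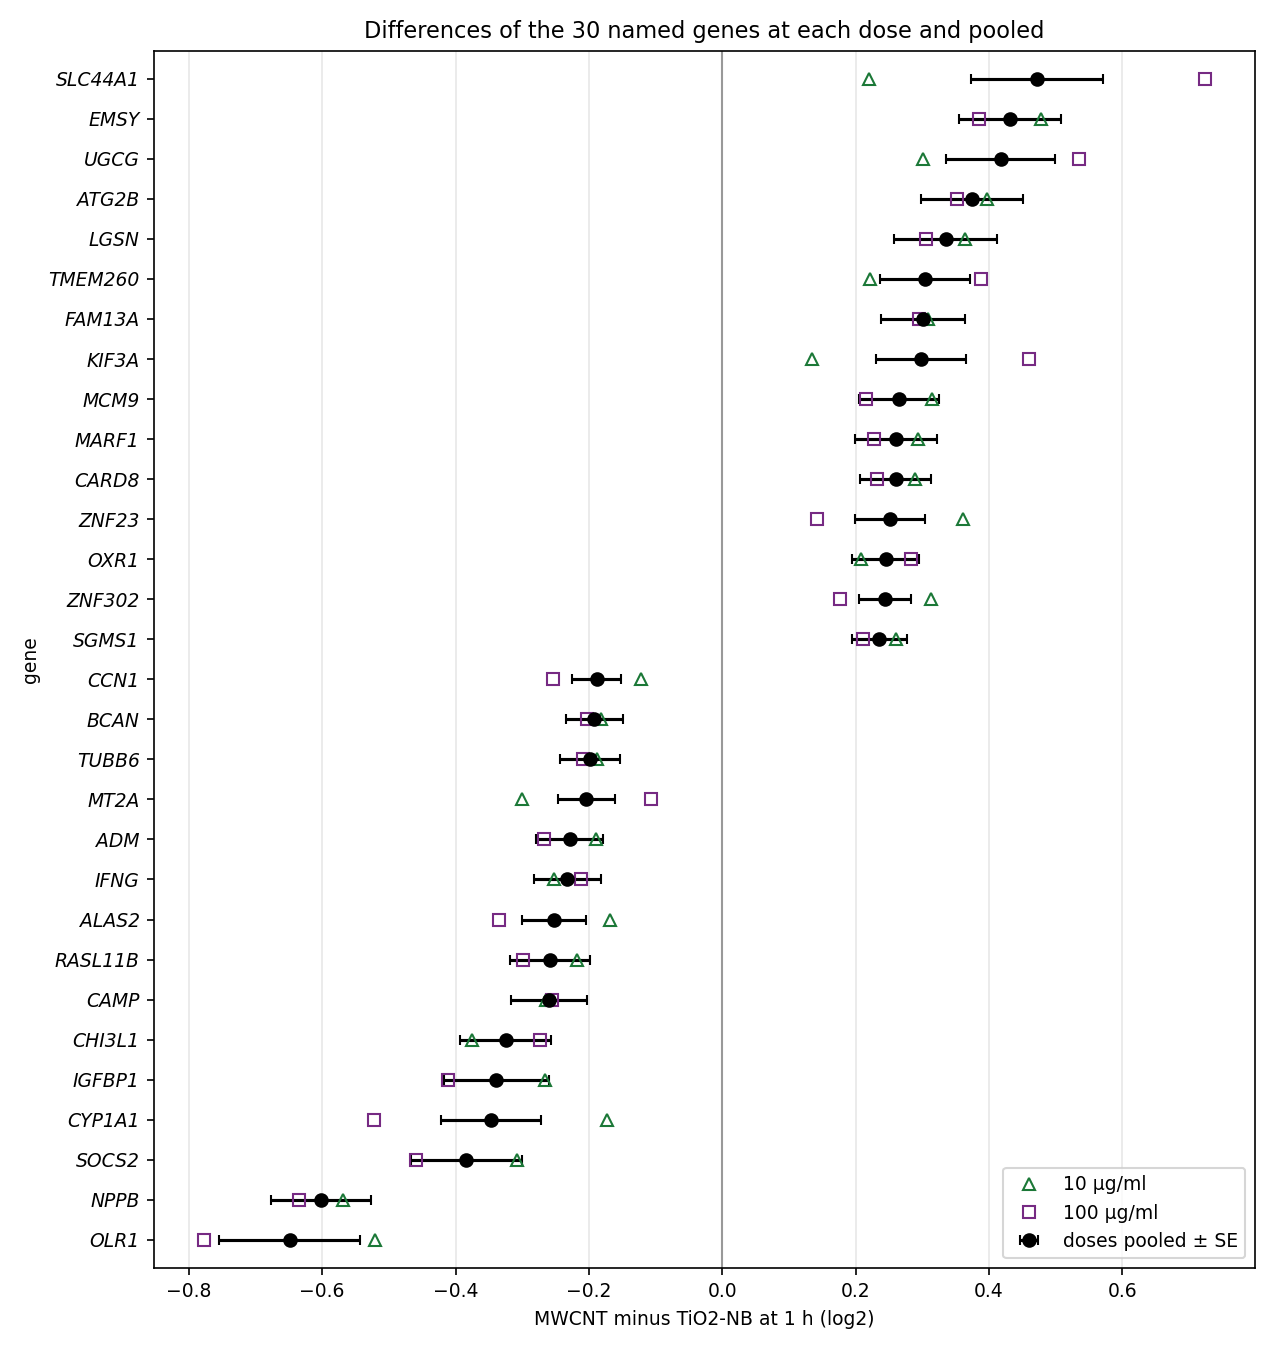
MWCNT minus TiO2-NB difference at 1 h (log2) for the 15 genes with the largest called differences in each direction, for the doses pooled (filled circles, ± SE) and at 10 µg/ml (triangles) and 100 µg/ml (squares). At both doses all 30 genes lie on the same side of 0 as the pooled value, which uses both.

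The start sites of several lower genes have a TATA box letter match. RefSeq promoter sequences were found for 12 of the 19 lower genes, 43 of the 48 higher genes and 9562 of all 11963 genes (build GRCh38.p14). NPPB, OLR1, SOCS2, CCN1 and IGFBP1 were among the lower genes without a sequence, so the shares below do not cover them. In the 250 bases before the start site, on either strand, TATAAA was present in 5 of 12 lower genes (41.7%), 5 of 43 higher genes (11.6%) and 7.93% of all promoters. Counted on the gene's own strand and starting 35 to 20 bases before the start site, where a TATA box normally lies, it was present in 5 of 12 lower genes, 1 of 43 higher genes (2.33%) and 3.51% of all. That window was chosen after the matches were seen. The 5 lower genes were ADM, CHI3L1, CYP1A1, IFNG and MT2A, and in them TATAAA began 27, 27, 32, 31 and 29 bases before the start site in that order. Median GC content was 60.2% in the lower set, 65.0% in the higher set and 64.0% in all. No test was made of these shares, and a match is a description of letters, not of a site in use. The sequences below show the element in 4 of the lower genes, beside 2 higher genes with none in the last 100 bases; each reads 5′ to 3′ on the gene's strand and ends at the base before the start site. TATAAA is in capitals, and in CYP1A1 also GCGTG, the core that AHR and its partner bind, which on either strand was in 41.7% of all promoters, 3 of 12 lower (25.0%) and 18 of 43 higher genes (41.9%). GCGTG was marked in CYP1A1 only, and the printed stretches of MT2A and the higher gene UGCG hold it too, in small letters.
CYP1A1, chr15:74725529-74725778, minus strand: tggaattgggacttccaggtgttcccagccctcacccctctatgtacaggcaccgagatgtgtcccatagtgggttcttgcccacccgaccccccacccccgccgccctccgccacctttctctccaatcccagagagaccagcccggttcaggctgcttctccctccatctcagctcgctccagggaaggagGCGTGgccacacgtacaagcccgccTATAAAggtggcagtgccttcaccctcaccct
MT2A, chr16:56608484-56608583, plus strand: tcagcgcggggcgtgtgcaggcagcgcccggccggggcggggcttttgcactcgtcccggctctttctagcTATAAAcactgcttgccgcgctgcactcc
ADM, chr11:10304973-10305072, plus strand: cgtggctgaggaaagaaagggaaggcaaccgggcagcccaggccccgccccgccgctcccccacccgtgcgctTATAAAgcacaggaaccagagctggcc
CHI3L1, chr1:203186705-203186804, minus strand: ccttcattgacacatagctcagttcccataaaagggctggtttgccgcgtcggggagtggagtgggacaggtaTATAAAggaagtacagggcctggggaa
UGCG, chr9:111896714-111896813, plus strand: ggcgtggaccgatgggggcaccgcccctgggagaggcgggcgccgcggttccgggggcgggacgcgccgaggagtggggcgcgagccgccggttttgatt
EMSY, chr11:76444918-76445017, plus strand: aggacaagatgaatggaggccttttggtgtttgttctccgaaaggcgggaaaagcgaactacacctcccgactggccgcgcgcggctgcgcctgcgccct

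Among the genes higher with MWCNT, SLC44A1, a transporter of choline across the plasma membrane, had the largest difference. It had 4.78, 4.54 and 4.74 with MWCNT at 10 µg/ml and 4.84, 5.16 and 5.06 at 100 µg/ml, against 4.61, 4.61 and 4.18 with TiO2-NB at 10 µg/ml and 4.20, 4.14 and 4.55 at 100 µg/ml. The control had 4.54, 4.90 and 4.43, with a mean of 4.62 between the particle means and arrays that overlapped both. Neither particle passed against the control (adjusted p = 0.261 with MWCNT and 0.222 with TiO2-NB). Only MWCNT 10 µg/ml replicate 2 fell within the TiO2-NB range. The difference was 0.47 ± 0.10 (adjusted p = 0.0338), with 0.22 at 10 µg/ml and 0.72 at 100 µg/ml. Its call held in 5 of the 12 fits with 1 exposed array of 1 h left out. The deposited values carry no detection call, so whether a dim probe set is above background is not known. SLC44A1, EMSY, KIF3A, CHI3L1, IFNG and ALAS2 are the 6 of the 30 named genes in the dimmest 1 in 3 probe sets, and their differences are to be read with that limit.

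EMSY, a chromatin-associated repressor that binds BRCA2, had 5.35, 4.85 and 5.28 with MWCNT at 10 µg/ml and 5.06, 5.22 and 5.35 at 100 µg/ml, against 4.56, 4.83 and 4.66 with TiO2-NB at 10 µg/ml and 4.64, 4.88 and 4.95 at 100 µg/ml. The control had 4.89, 4.97 and 5.09. Again 1 MWCNT array, replicate 2 at 10 µg/ml, lay within the TiO2-NB range. The difference was 0.43 ± 0.08 (adjusted p = 0.0144). Its call held in 11 of the 12 fits with 1 exposed array of 1 h left out.

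UGCG makes glucosylceramide, the first step towards most glycosphingolipids of the cell surface. It had 7.73, 7.74 and 7.62 with MWCNT at 10 µg/ml and 7.48, 7.87 and 7.70 at 100 µg/ml, against 7.46, 7.60 and 7.13 with TiO2-NB at 10 µg/ml and 6.94, 7.34 and 7.17 at 100 µg/ml. The control had 7.75, 7.71 and 7.78, so that the MWCNT arrays were near the control and the TiO2-NB arrays below it. The difference was 0.42 ± 0.08 (adjusted p = 0.0228). Its call held in 8 of the 12 fits with 1 exposed array of 1 h left out. SGMS1, a sphingomyelin synthase that also uses ceramide, had 8.53 to 8.67 with MWCNT and 8.26 to 8.42 with TiO2-NB. These ranges did not overlap, and the difference was 0.24 ± 0.04 (adjusted p = 0.0144).

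ZNF302, a zinc finger protein of the KRAB class, had 8.28, 8.31 and 8.34 with MWCNT at 10 µg/ml and 8.30, 8.17 and 8.31 at 100 µg/ml, against 7.91, 8.07 and 8.02 with TiO2-NB at 10 µg/ml and 8.03, 8.07 and 8.15 at 100 µg/ml. The control had 8.33, 8.42 and 8.42. The particles did not overlap, and the MWCNT arrays were the nearer to the control. The difference was 0.24 ± 0.04 (adjusted p = 0.00866). ZNF302 lost its call only in the fits on 12 and 15 arrays (adjusted p = 0.106 and 0.0924).

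The other named higher genes differed by 0.25 to 0.37. ATG2B, a lipid transfer protein of growing autophagosomes, had 0.37 ± 0.08, the lens protein gene LGSN 0.33 ± 0.08, TMEM260, a mannosyltransferase of the endoplasmic reticulum, 0.30 ± 0.07 and the motor subunit KIF3A 0.30 ± 0.07. FAM13A had 9.88 to 10.22 with MWCNT, 9.47 to 9.85 with TiO2-NB and 11.1 ± 0.18 in the control (SD, n = 3). The particles did not overlap and both were far below the control; its difference was 0.30 ± 0.06 (adjusted p = 0.0328), and the other 2 probe sets of FAM13A had 0.26 (adjusted p = 0.0744) and 0.31 (adjusted p = 0.0618). MCM9, a helicase of DNA repair, was on the other side of the control. It had 6.36 to 6.70 with MWCNT, 6.21 to 6.35 with TiO2-NB and 5.89 to 6.00 in the control. Its particle difference was 0.26 ± 0.06, and its second probe set had 0.08 and did not pass (adjusted p = 0.686). The RNA-binding protein MARF1, the inflammasome regulator CARD8, the zinc finger gene ZNF23 and OXR1, which protects cells from oxidative damage, differed by 0.26 ± 0.06, 0.26 ± 0.05, 0.25 ± 0.05 and 0.25 ± 0.05. Calls of these other higher genes held in 2 (KIF3A and MARF1) to 6 (FAM13A, CARD8, ZNF23 and OXR1) of the 12 fits with 1 exposed array of 1 h left out. Among genes with several probe sets agreement was partial: 66 of the 109 genes with a called probe set had more than 1, all probe sets of 49 of them had the same sign, and 4 genes had at least 2 called.

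Set against the control, more of the higher probe sets passed with TiO2-NB than with MWCNT. The comparisons of the particles with the control share the 3 control arrays, and they share the exposed arrays with the difference that chose these probe sets, so their values are given side by side without a test. Of the 92 probe sets higher with MWCNT, 27 passed between MWCNT and control (29.3%; 10.6% of all probe sets did), and 58 passed between TiO2-NB and control (63.0%; 11.4% of all did). Their median difference from the control was 0.0044 with MWCNT and -0.22 with TiO2-NB. The 33 lower probe sets had a median of -0.13 with MWCNT and 0.069 with TiO2-NB, and 11 (33.3%) passed with MWCNT and 7 (21.2%) with TiO2-NB. All 22215 probe sets had medians of -0.010 and 0.0048 in that order. The 18S level was 8.92 to 9.66 with MWCNT, 8.12 to 9.47 with TiO2-NB and 8.30 to 8.49 in the control. The 28S level was 8.89 to 9.06, 8.83 to 9.14 and 8.74 to 8.85 in the same order. With MWCNT neither range overlapped the control. Comparisons with the control were not read in the alternative fits, so the part of these levels in them was not tested.

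Single genes took several courses. UGCG had -0.06 with MWCNT (adjusted p = 0.786) and fell by 0.48 with TiO2-NB (adjusted p = 0.00231), and ZNF302 had -0.11 (adjusted p = 0.163) and fell by 0.35 (adjusted p = 2.05e-05). CYP1A1 had 0.03 with MWCNT (adjusted p = 0.89) and rose by 0.38 with TiO2-NB (adjusted p = 0.00763), and ADM had 0.07 (adjusted p = 0.553) and rose by 0.30 (adjusted p = 0.00204). NPPB fell by 0.79 with MWCNT (adjusted p = 4.73e-06) and had -0.19 with TiO2-NB (adjusted p = 0.209), and OLR1 fell by 0.62 (adjusted p = 0.00266) and had 0.03 (adjusted p = 0.917). FAM13A fell with both particles (-1.10 with MWCNT and -1.40 with TiO2-NB), as did CCN1 (-0.48 and -0.29), and MCM9 rose with both (0.57 and 0.31).

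**Figure D3:**
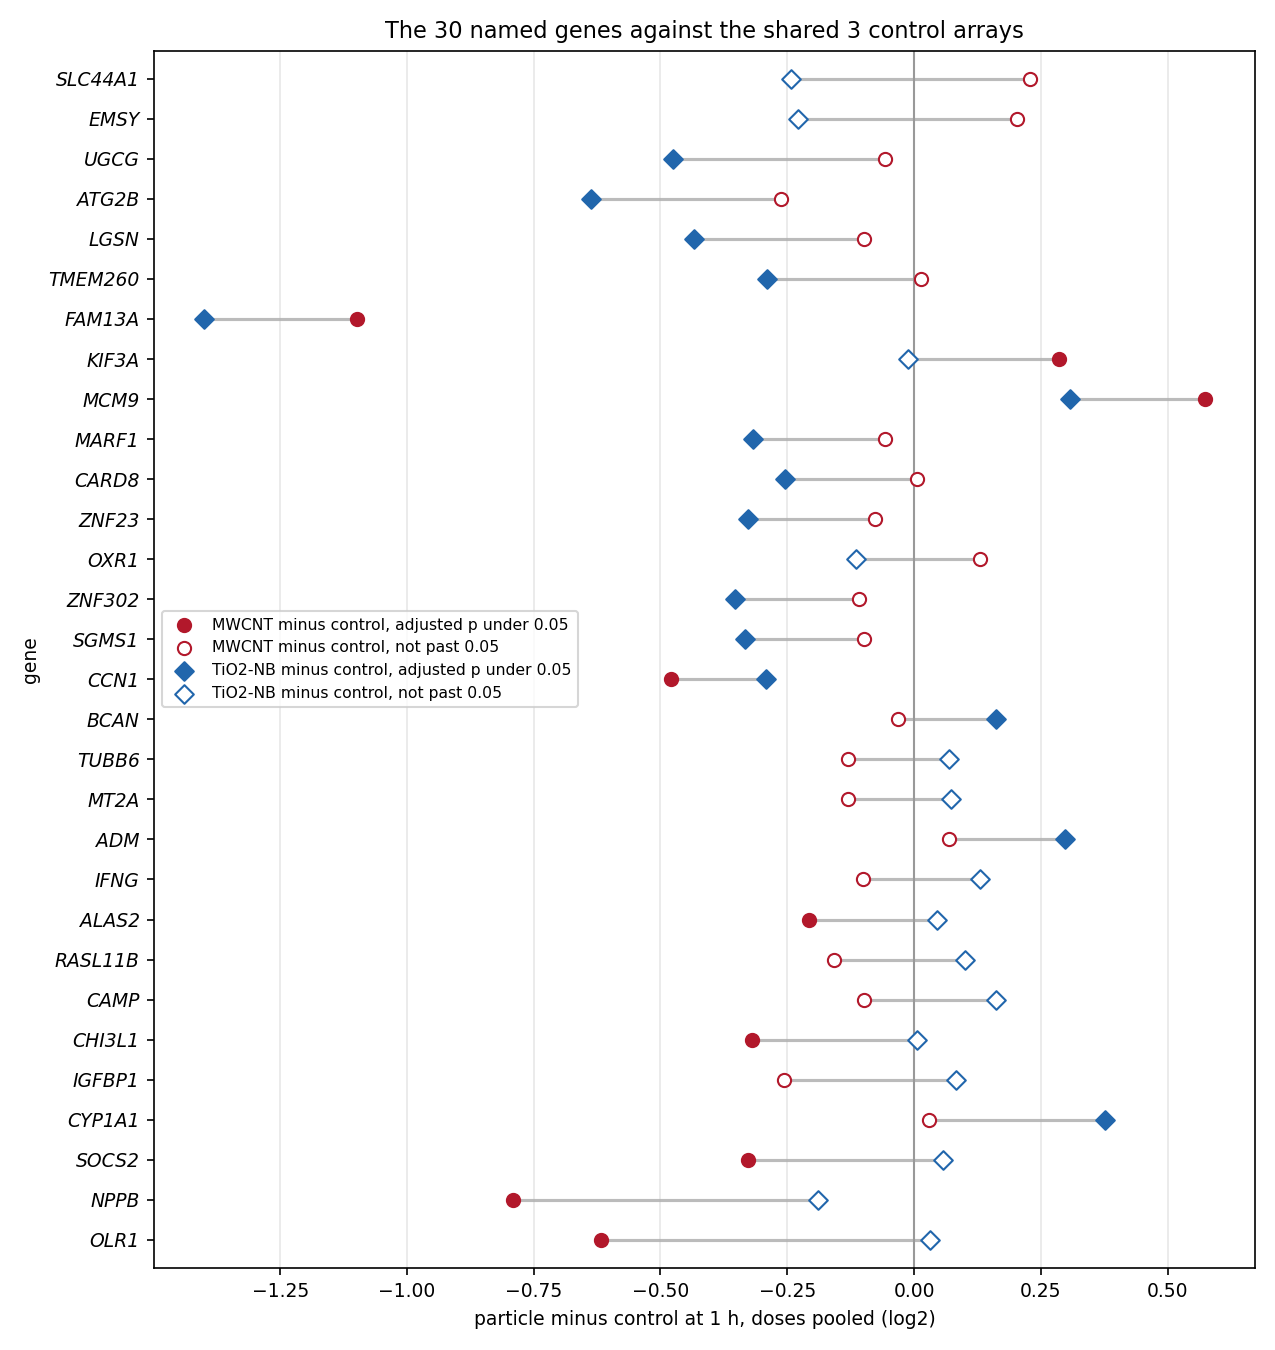
Difference from the control at 1 h (log2, doses pooled) of the 30 named genes with MWCNT (circles) and TiO2-NB (diamonds); filled symbols passed an adjusted p of 0.05 and the grey line spans the particle difference. For UGCG the circle is at -0.06 and the diamond at -0.48, and for NPPB the circle is at -0.79 and the diamond at -0.19; both particles share the 3 control arrays.

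Dose by dose, the same difference was called less often, with 3 arrays against 3. At 10 µg/ml 15 probe sets passed (0.0675%), 9 higher (0.0405%) and 6 lower (0.027%) with MWCNT, and 3041 had an unadjusted p under 0.05. Named genes at that dose were the zinc finger genes ZNF623 (0.45, adjusted p = 0.0309), ZBTB6 (0.35, adjusted p = 0.0309) and ZNF302 (0.31, adjusted p = 0.0309) and the secernin SCRN3 (0.32, adjusted p = 0.0423), all higher with MWCNT. NPPB (-0.57, adjusted p = 0.0421), the bombesin receptor GRPR (-0.33, adjusted p = 0.0423) and the secreted neurotrophic factor NENF (-0.23, adjusted p = 0.0309) were lower. ZNF623 differed by 0.01 at 100 µg/ml and GRPR by 0.0042, but the difference between doses did not pass for any probe set. The count at 10 µg/ml was 0 without MWCNT replicate 1 or without TiO2-NB replicate 1. It was 2 without MWCNT replicate 2 (EMSY and MRNIP), 1 without MWCNT replicate 3 (ZNF623) and 1 without TiO2-NB replicate 3 (CSHL1); MRNIP and CSHL1 are named here after their values were seen.

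At 100 µg/ml 0 probe sets passed in limma (0% of those tested), and 2055 had an unadjusted p under 0.05, 1092 higher and 963 lower with MWCNT. The largest named differences at this dose were those of OLR1 (-0.78, adjusted p = 0.126), SLC44A1 (0.72, adjusted p = 0.126) and NPPB (-0.64, adjusted p = 0.0894). Without MWCNT replicate 1 or 2 the count was 1, CYP1A1 and SLC2A9 in that order, the second named after its values were seen. The particle by dose interaction gave 0 probe sets (1315 at an unadjusted p under 0.05), so for no gene is the particle difference shown to change with dose. Dose effects within a particle were not tested. Of the 22215 probe sets, 60.0% had the same sign at both doses. Across them the differences at 10 and 100 µg/ml, which have no array in common, had a Pearson r of 0.29 and a Spearman correlation of 0.28; probe sets are not independent replicates.

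In most gene lists 0 or 1 member passed between the particles at 1 h, where 0.401% of all genes were called higher and 0.159% lower. Over all 11963 genes the median difference was -0.011, 43.6% were above 0, and 7.72% were higher and 9.18% lower at an unadjusted p under 0.05. Of 278 genes named as C2H2 zinc fingers, the largest family of DNA-binding proteins, 3 passed and were higher with MWCNT (ZNF302, ZNF23 and ZBTB6, a difference of 0.21 ± 0.04). That is 1.08% called higher, against 0.401% of all genes, and 0 called lower, against 0.159%. At an unadjusted p under 0.05, 36 were higher and 11 lower, and the median of the list was 0.022. Of 19 cytosolic heat shock chaperones, HSPH1, a nucleotide exchange factor of HSP70, passed at 0.17 ± 0.04 (adjusted p = 0.0389). It had 8.98 to 9.15 with MWCNT and 8.85 to 8.96 with TiO2-NB, without overlap, and 9.05 to 9.26 in the control. The other chaperones did not pass; 16 of the 19 were above 0, the median was 0.029, and CHORDC1 had 0.17 (adjusted p = 0.125) and DNAJA1 0.07 (adjusted p = 0.168).

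In the list of metallothioneins, small cysteine-rich proteins that bind zinc, copper and cadmium, and of zinc response genes, 1 of 11 genes passed, MT2A, and 10 of 11 were below 0. MT2A had 8.26, 8.29 and 8.32 with MWCNT at 10 µg/ml and 8.52, 8.57 and 8.38 at 100 µg/ml, against 8.61, 8.51 and 8.65 with TiO2-NB at 10 µg/ml and 8.58, 8.72 and 8.49 at 100 µg/ml. The MWCNT arrays of 10 µg/ml were the lowest, and those of 100 µg/ml overlapped TiO2-NB. The control had 8.62, 8.52 and 8.43. MT1F had -0.15 (adjusted p = 0.113) and MT1G -0.17 (adjusted p = 0.127), and these near-identical genes can share probes, so that their values are not independent of MT2A. The median of the list was -0.068, with -0.195 at 10 µg/ml and -0.039 at 100 µg/ml.

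Of 21 mucin and goblet genes 0 passed, and 6 were lower and 0 higher at an unadjusted p under 0.05. MUC2, the gel-forming mucin of the colon, had -0.20 (adjusted p = 0.0659). It had 5.85 to 6.10 on the MWCNT arrays and 6.02 to 6.26 on the TiO2-NB arrays. MUC5AC had 0.10 (adjusted p = 0.429), MUC5B -0.03 (adjusted p = 0.868) and TFF1 -0.0035 (adjusted p = 0.968). Of the 21 genes 16 were below 0 and 5 above. The 20 leukocyte genes, of cells that the co-culture does not hold, had 5 lower and 0 higher in the same count. Of 32 interferon response genes 0 passed, with 7 lower and 1 higher at an unadjusted p under 0.05; IFI27 had -0.31 (adjusted p = 0.0913) and IFI35 -0.12 (adjusted p = 0.0765). In the list of 10 AHR pathway genes CYP1A1 passed, and in that of 34 immediate early factors and ERK brakes CCN1 did. ADM passed among 34 hypoxia and glycolysis genes, MCM9 among 42 DNA replication genes and FAM13A among 35 actin and adhesion genes. NR5A2, a nuclear receptor of gut and liver, passed among 26 nuclear receptors (0.15 ± 0.03, adjusted p = 0.0494). Of the 42 DNA replication genes 33 were below 0, the other side from MCM9, with a median of -0.047.

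In the lists of NRF2 antioxidant targets (27 genes measured), NF-kB and inflammatory genes (30), the unfolded protein response (20), the integrated stress response (24), p53 targets (19), tight and adherens junctions (21), brush border genes (28) and oxidative phosphorylation (58) 0 genes passed. Their medians lay between -0.049 and 0.033. Markers of cell types that neither line represents had lower medians, with 0 genes called: -0.092 for 20 leukocyte genes, of which TYROBP had -0.18 (adjusted p = 0.102), and -0.090 for 18 fibroblast and endothelial genes, of which FAP had -0.17 (adjusted p = 0.156). Of 40 genes listed for the size of their answer to particles at 1 h in earlier work on these arrays, FAM13A and MCM9 were higher, and NPPB and CYP1A1 lower, with MWCNT. That list was drawn up on these samples and is not independent evidence.

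**Figure D4:**
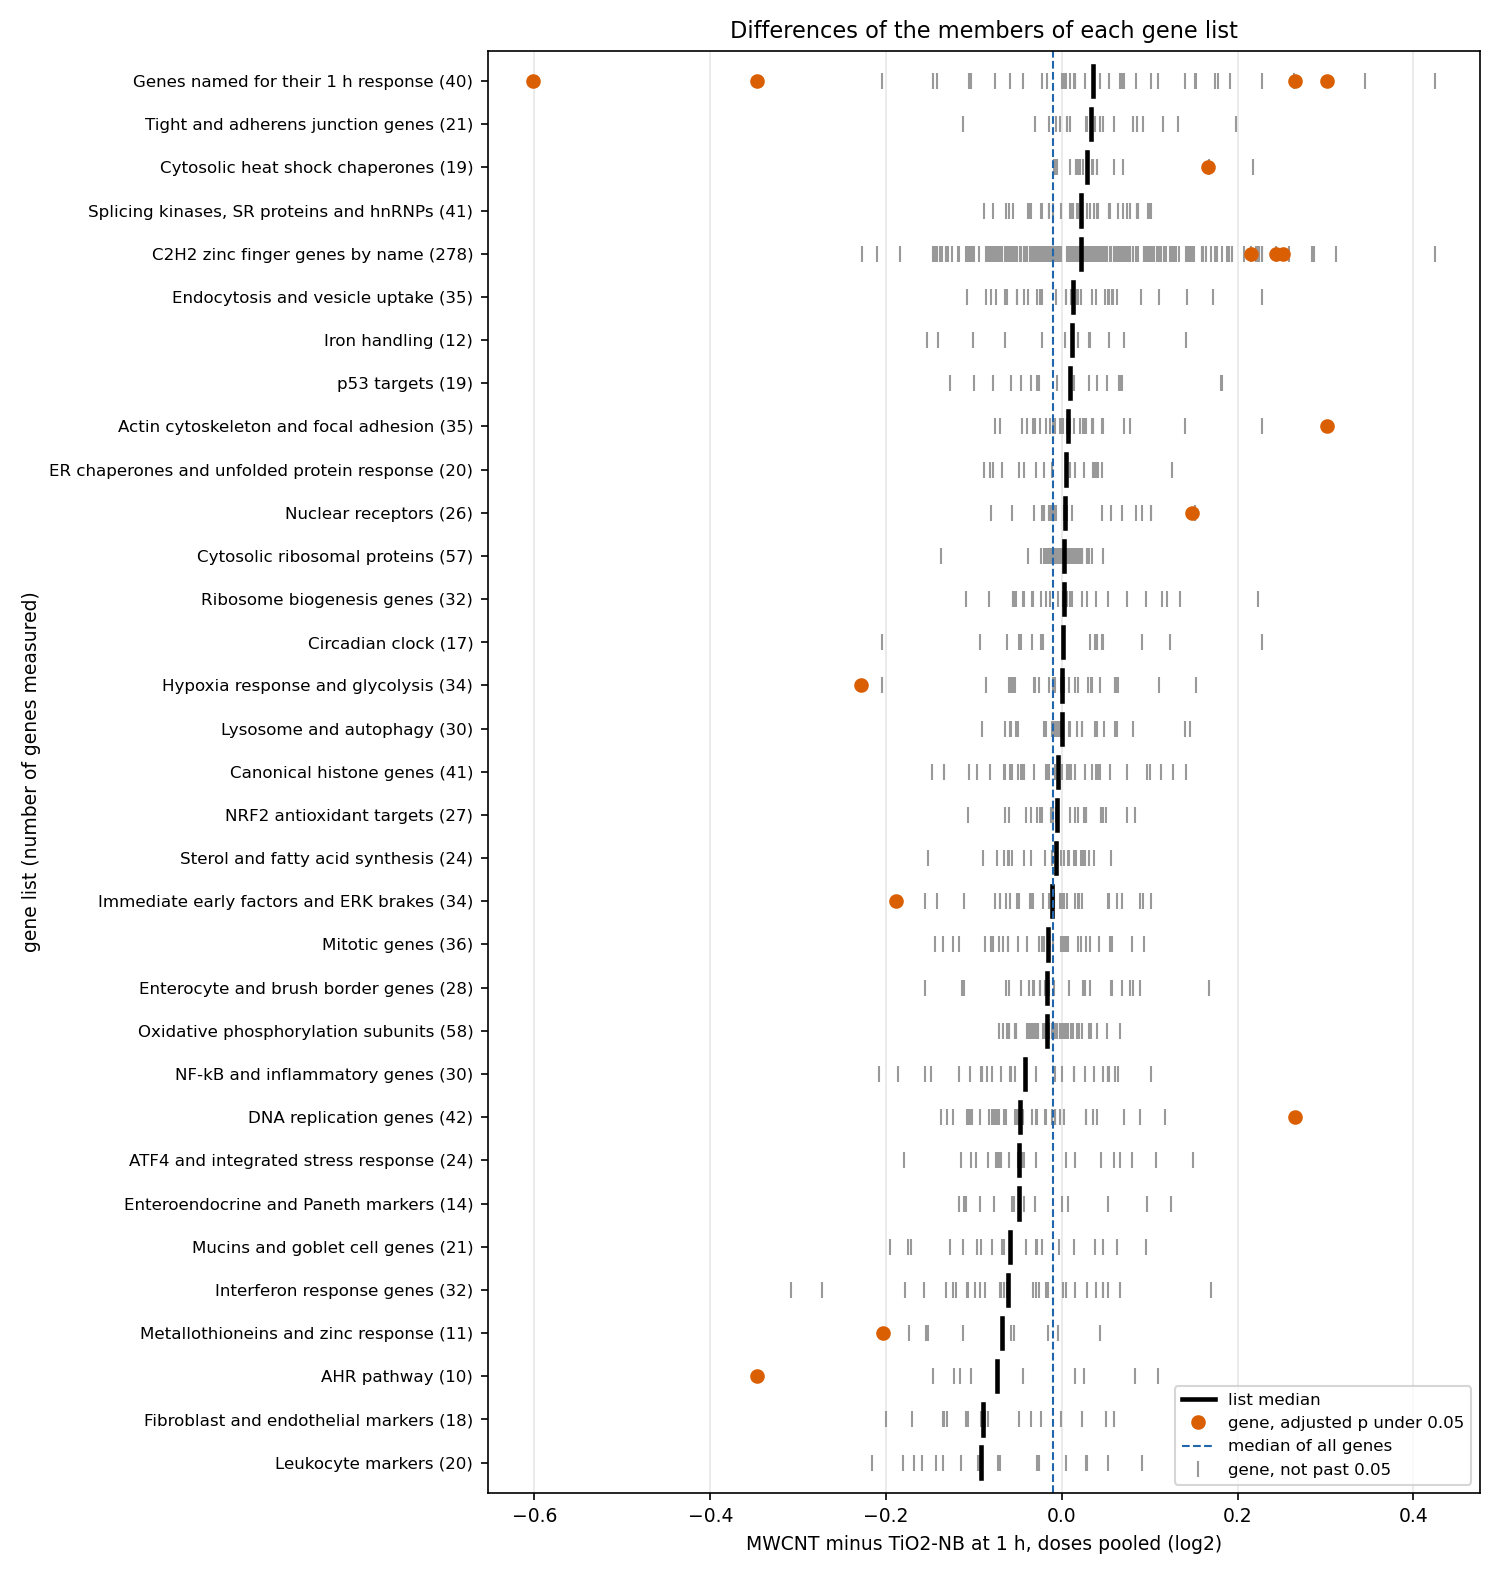
MWCNT minus TiO2-NB difference at 1 h (log2, doses pooled) of every measured gene of 33 lists; black bars are list medians, orange circles are genes past an adjusted p of 0.05, and the dashed line is the median of all genes at -0.011. Medians run from -0.092 for leukocyte markers to 0.035 for the genes named for their response at 1 h.

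At 24 h most of these differences did not pass. The 12 exposed arrays of 24 h do not enter the means at 1 h, but they share with them the estimate of the spread. Of the 125 probe sets called at 1 h, 50 (40%) had the same sign at 24 h, against 45.7% of all probe sets, and 16 were called with the same sign and 3 with the opposite one. At 24 h 689 probe sets passed in all (3.1%), 524 higher (2.36%) and 165 lower (0.743%) with MWCNT; without TiO2-NB 100 µg/ml replicate 3 of 24 h the number was 454. Across all probe sets the differences at 24 h and 1 h had a Pearson r of 0.10 and a Spearman correlation of -0.10.

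CYP1A1 was lower with MWCNT at both times and by more at 24 h. At 24 h it had 6.75, 6.83 and 6.78 with MWCNT at 10 µg/ml and 6.50, 6.13 and 6.31 at 100 µg/ml, against 7.38, 7.27 and 7.44 with TiO2-NB at 10 µg/ml and 7.31, 7.44 and 7.59 at 100 µg/ml. The control of 24 h had 7.42, 7.28 and 7.37, level with TiO2-NB, and no MWCNT array reached either. The difference was -0.85 at 24 h (adjusted p = 3.1e-07) and -0.35 at 1 h, and the change between times passed (-0.51, adjusted p = 0.0237).

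Among the higher genes, UGCG kept its sign, with 0.60 at 24 h (adjusted p = 5.09e-05) and 0.42 at 1 h. At 24 h UGCG had 6.11 to 6.88 with MWCNT, 5.86 to 6.08 with TiO2-NB and 6.70 to 6.82 in the control, so no MWCNT array fell within the TiO2-NB range. SLC44A1 (0.39, adjusted p = 0.0278), TMEM260 (0.29, adjusted p = 0.0149), KIF3A (0.27, adjusted p = 0.025) and OXR1 (0.23, adjusted p = 0.00694) also passed at 24 h with the same sign, as did IGFBP1 in the lower direction (-0.30, adjusted p = 0.0385). For these 6 genes the change between times did not pass, with adjusted p-values of 0.421 (UGCG), 0.807 (SLC44A1), 0.945 (TMEM260), 0.912 (KIF3A), 0.949 (OXR1) and 0.878 (IGFBP1).

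For NPPB, OLR1 and EMSY the difference changed between the times, by the test of the change itself. All 3 were named for the size of their difference at 1 h, which enters the change, so their choice favours a called change. NPPB had -0.01 at 24 h (adjusted p = 0.988) and -0.60 at 1 h, a change of 0.59 (adjusted p = 0.0116). OLR1 had 0.19 at 24 h (adjusted p = 0.477) and -0.65 at 1 h, a change of 0.84 (adjusted p = 0.0103). EMSY had -0.15 at 24 h (adjusted p = 0.412) and 0.43 at 1 h, a change of -0.58 (adjusted p = 0.0139). These 3 changes passed with each of the 24 exposed arrays left out in turn, and that of CYP1A1 in 22 of 24, not without TiO2-NB 100 µg/ml replicate 2 of 1 h or MWCNT 10 µg/ml replicate 1 of 24 h (adjusted p at most 0.0533). Over all probe sets the change between times passed for 1.71%, or 379, a number that fell with many single arrays left out. Of the arrays of 1 h, it was 130 without MWCNT 10 µg/ml replicate 1, 199 without its replicate 3, 81 without MWCNT 100 µg/ml replicate 3, 141 without TiO2-NB 10 µg/ml replicate 1 and 78 without TiO2-NB 100 µg/ml replicate 2. Of the arrays of 24 h, it was 63 and 247 without MWCNT 10 µg/ml replicates 1 and 2, and 76 and 249 without MWCNT 100 µg/ml replicates 1 and 3. It was 108 and 229 without TiO2-NB 10 µg/ml replicates 2 and 3, and 219 and 150 without TiO2-NB 100 µg/ml replicates 2 and 3.

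**Figure D5:**
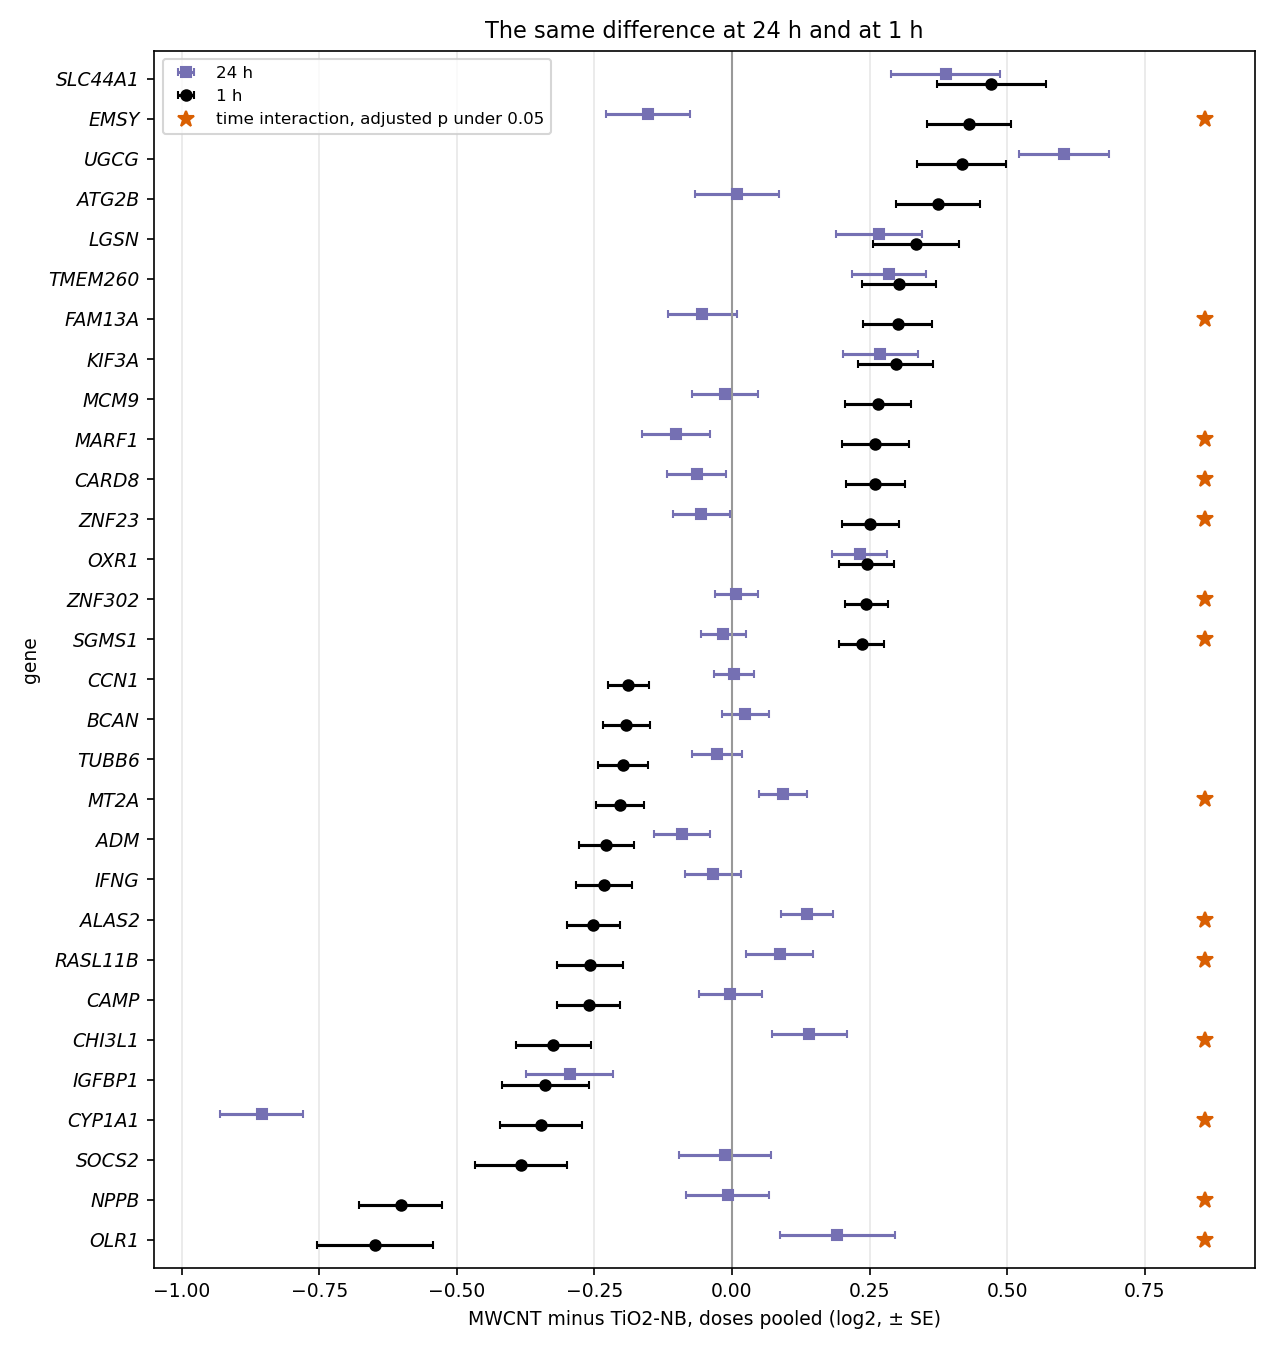
MWCNT minus TiO2-NB difference (log2, doses pooled, ± SE from limma) of the 30 named genes at 24 h (squares) and 1 h (circles), with a star where the change between times passed an adjusted p of 0.05. CYP1A1 and UGCG lie on the same side of 0 at both times, while NPPB is at -0.01 at 24 h and -0.60 at 1 h.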

How the data were processed

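Each array received labelled material made from 3 µg of total RNA. The authors deposited log2 levels per probe set made with RMA, per the submitters' processing notes; the sources used here do not give the RMA version or the chip definition. No further scaling was applied. Of 22277 probe sets, 62 control probe sets were left out. Genes were named from the platform annotation (19064 probe sets with 1 symbol, 1043 with several, 2108 with none; 19052 matched RefSeq), and the probe set with the highest mean over 30 arrays stands for a gene.

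limma 3.58.1 (R 4.3.3) fitted all 30 arrays with 1 mean for each of the 10 groups (20 residual degrees of freedom plus 3.68 from eBayes). Contrasts averaged the 2 doses, two-sided p-values of a comparison were Benjamini-Hochberg adjusted across its 22215 probe sets, and ± is the standard error unless named SD. RNA quality was compared by exact permutation within dose over 400 relabelings. The fit was tested on simulated data. Arrays have no read depth; their number limits the precision.

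Named genes were the 15 largest called differences in each direction, up to 4 for each other comparison, up to 3 per list and 12 of the genes listed for their response at 1 h, by smallest p. The members and the 33 lists (1143 genes measured of 1248 entries) were chosen with earlier results of these data known. The arrays were not treated as paired by replicate number, and the labels do not say whether they were. Deviations of MWCNT and TiO2-NB arrays with the same number and dose correlated at -0.040 to 0.143 over 6 pairs. Those with other numbers correlated at -0.109 to 0.092 over 12 pairs. So few weak values show no pairing but cannot exclude it. Alternatives were the replicate block, 18S and 28S covariates, a filter on low values, a second quantile normalisation, array weights and trended robust variances. Others were a single probe set for each gene, smaller sets of arrays and each exposed array left out. No control array was left out singly.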

Additional observations from a re-analysis of the deposited data

Results flagged for a closer look

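Of 64 groups of 6 arrays tested for an array that stands apart (30 genes and the 18S and 28S levels, for each particle), 3 had one, where chance gives about 1 in 20. ZNF302 had 8.17 on MWCNT 100 µg/ml replicate 2, against 8.28 to 8.34 on the other MWCNT arrays. TUBB6 had 8.53 on TiO2-NB 100 µg/ml replicate 2, against 8.35 to 8.40 on the other TiO2-NB arrays. ALAS2 had 5.16 on TiO2-NB 10 µg/ml replicate 1, against 5.29 to 5.35 on the others.

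For 14 of the 30 named genes the particle difference changed between 24 h and 1 h by a test of the change itself (24 h minus 1 h, log2, adjusted p between 0.0103 and 0.0446). The change passed for 62 of the 125 probe sets called at 1 h and for 379 (1.71%) of all 22215. Among genes higher with MWCNT at 1 h the change was -0.58 for EMSY, -0.36 for FAM13A, -0.36 for MARF1, -0.32 for CARD8 and -0.31 for ZNF23. It was -0.24 for ZNF302 and -0.25 for SGMS1. Among genes lower with MWCNT at 1 h it was 0.30 for MT2A, 0.39 for ALAS2, 0.34 for RASL11B and 0.47 for CHI3L1. It was 0.59 for NPPB, 0.84 for OLR1 and, in the other direction, -0.51 for CYP1A1. These genes were named for the size of their difference at 1 h, which enters the change. With each of 24 arrays left out in turn, EMSY, ALAS2, NPPB and OLR1 passed 24 times, CHI3L1 23, MT2A and CYP1A1 22, and the other 7 genes between 6 (RASL11B) and 15 (CARD8) times.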

How the results depend on the processing

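No named gene reversed: of 624 alternative values for the 30 genes, 328 kept the call and 296 lost it. These genes were chosen as the largest called differences on the same arrays, so their signs could hardly reverse in such fits. The 125 calls became 4 with 18S as a covariate, 288 without the dimmest 1 in 3 probe sets, 78 after a second quantile normalisation, 248 with trended robust variances, 482 with array weights, 1 on 15 arrays and 2 on 12 arrays. Leaving out 1 exposed array gave 16 to 212 calls pooled. It gave 0 to 12 against 15 at 10 µg/ml and 0 to 1 against 0 at 100 µg/ml. For the dose interaction it gave 0 throughout. It gave 454 to 760 against 689 at 24 h and 63 to 566 against 379 for the time interaction. Without the dimmest 1 in 3 probe sets the counts were 27 at 10 µg/ml, 1 at 100 µg/ml (NPPB) and 713 for the time interaction. The cause of these shifts was not tested, apart from the fewer arrays or probe sets that some of these fits hold by construction. With the replicate number as a block, 103 probe sets passed (86 of them among the 125), 19 of the 30 named genes kept the call, and 2 passed at 100 µg/ml (CYP1A1 and NPPB). The block gave 11 at 10 µg/ml, 656 at 24 h and 339 for the time interaction, all within 1.5 times of the count without it.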
